A study of Mus musculus with 6 samples.

Results

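The 10 genes described here were PU.1, encoded by Spi1, and 9 further transcription factors of its ETS family (Spib, Elf1, Elf4, Fli1, Ets1, Ets2, Erg, Etv6 and Gabpa). They were taken by name from the 35122 genes of the table, with earlier results of these data known, and all 10 passed the filter on low counts that left 13925 genes for testing. RNA was sequenced from adipocytes that floated after collagenase digestion of the epididymal fat pads of 6 male C57BL/6 mice on a chow diet, 3 control and 3 aPU.1KO, with 1 library per mouse. All 6 mice carried floxed Spi1 alleles (PU.1 fl/fl), and the aPU.1KO mice also carried AdipoqCre, a Cre recombinase driven by the adiponectin promoter, which is active in fat cells, and controls were littermates. Mice of both groups were 10 to 11 months old by their labels, while the study's text places the mice above a year. The fraction was collected by flotation without a sort, so that RNA of other cells of the fat pad could be present.

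ETS factors share a winged helix-turn-helix DNA-binding domain that recognizes a GGAA core, and differ in the bases around that core, in their partners and in the cells that use them. PU.1 is best known as the factor that directs macrophage and other myeloid development, and SPIB is its nearest relative, used in B cells and plasmacytoid dendritic cells. ERG, FLI1 and ETS1 are prominent in endothelial cells, ELF1, ELF4 and FLI1 in blood cells, ETV6 is a repressor, and GABPA acts in nearly every cell on housekeeping and mitochondrial genes.

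To show the domain that Cre was meant to remove, the part of Spi1 exon 5 that aligned without a gap to Spib is given below. Exon 5 is the floxed exon and the last of 5 in the annotated protein-coding transcript. It runs from 91115075 to 91115756 on chromosome 2 of GRCm38 and makes up 38.8% of the coding sequence and 33.5% of the transcript. The printed stretch of 270 bases encodes most of the ETS domain and lies at chr2:91115083-91115352 on the plus strand for Spi1 and at chr7:44527980-44528249 on the minus strand for Spib. Capitals mark the 202 bases (74.8%) that are identical in both.
Spi1: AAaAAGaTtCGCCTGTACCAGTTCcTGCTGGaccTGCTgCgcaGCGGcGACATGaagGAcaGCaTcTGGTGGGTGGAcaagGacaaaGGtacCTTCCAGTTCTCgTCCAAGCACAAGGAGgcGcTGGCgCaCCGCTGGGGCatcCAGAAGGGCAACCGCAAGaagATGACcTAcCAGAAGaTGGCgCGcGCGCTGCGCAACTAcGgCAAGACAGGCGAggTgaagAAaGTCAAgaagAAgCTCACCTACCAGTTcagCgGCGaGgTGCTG
Spib: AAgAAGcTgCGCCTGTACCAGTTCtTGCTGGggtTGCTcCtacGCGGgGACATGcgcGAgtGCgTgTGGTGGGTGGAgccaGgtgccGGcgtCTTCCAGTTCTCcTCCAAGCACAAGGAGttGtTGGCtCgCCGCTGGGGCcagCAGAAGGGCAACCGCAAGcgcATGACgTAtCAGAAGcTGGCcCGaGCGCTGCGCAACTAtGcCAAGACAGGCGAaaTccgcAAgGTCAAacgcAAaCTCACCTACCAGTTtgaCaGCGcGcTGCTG
The differing bases are scattered along the whole stretch. No run of 31 bases of a Spi1 transcript occurred in a transcript of any other annotated gene, so that reads of that length from Spi1 could be told from those of Spib and of the other ETS genes. Across the other 9 genes, 0 to 9.32% of such runs were shared with another gene. The highest shares were those of Elf1 (9.32%) and Gabpa (5.51%), whose exons overlap those of Wbp4 and Atp5j on the opposite strand. All 309 shared runs of Gabpa occurred in Atp5j, but only 299 of the 628 of Elf1 occurred in Wbp4, the rest in other genes. As the sources used here do not say that strand was used in counting, reads from these overlaps cannot be assigned with certainty.

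Total counts were between 20550252 and 24310144 in 5 libraries and 69283842 in control mouse 1, so that the values of that mouse carry the smallest counting error. The Spi1 gene (ENSMUSG00000002111, chr2:91082390-91115756, plus strand) is the target of the deletion and comes first. It was at 24.3, 6.35 and 26.7 CPM (normalized counts, relative to library size scaled by TMM factors) in control mice 1, 2 and 3, and at 3.20, 1.22 and 4.17 CPM in aPU.1KO mice 1, 2 and 3. The groups did not overlap, but control mouse 2 lay closer to the highest aPU.1KO mouse than to the other two control mice. The underlying counts were 1765, 145 and 674 in the control mice and 63, 27 and 88 in the aPU.1KO mice. The fitted level in aPU.1KO mice was 14.9% of that in control mice (log2 fold change -2.75, standard error 0.64, 95% confidence interval -4.26 to -1.23). With Benjamini-Hochberg adjustment over all genes tested, edgeR's quasi-likelihood test put this at an adjusted p of 0.0788, which did not pass a threshold of 0.05. By DESeq2, the test used in the study, the adjusted p was 0.000115. Over the alternatives other than the macrophage covariate given next, it ran from that value to 0.313, which was reached without control mouse 1. Exons 1 to 4 lie outside the floxed part, and their reads enter the Spi1 value too, since the counts were made for whole genes.

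**Figure D1:**
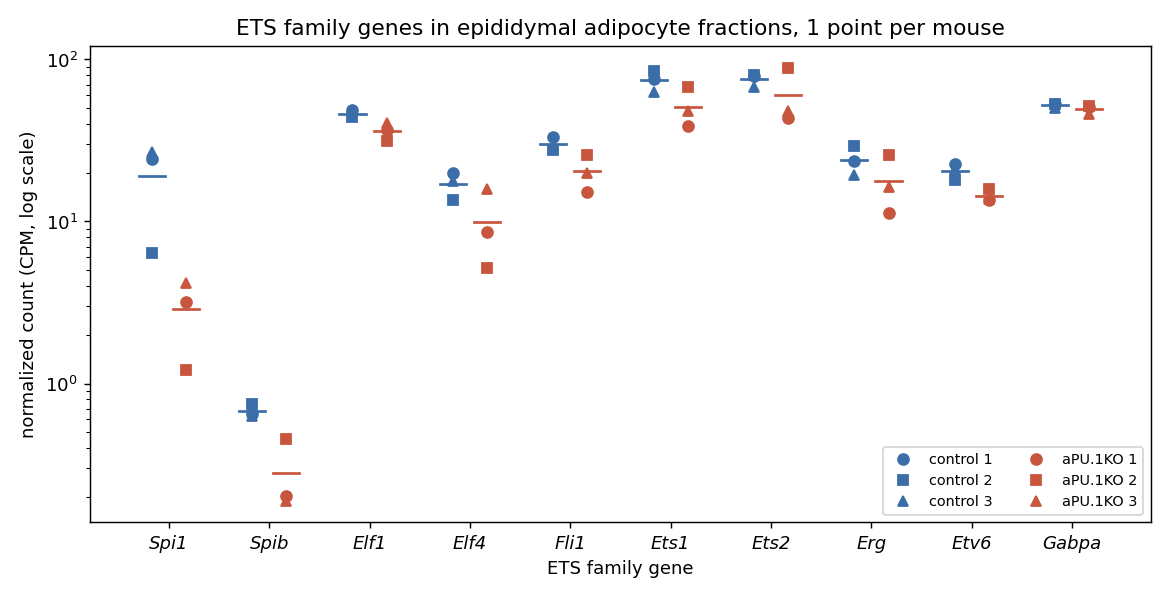
Normalized counts (CPM, log scale) of the 10 ETS genes, with 1 point per mouse and a horizontal line at each group mean. The groups are separate for Spi1, Spib, Elf1, Fli1 and Etv6, control mouse 2 has a Spi1 value of 6.35 CPM against 24.3 and 26.7 CPM in the other control mice, and Gabpa lies at nearly the same level in all 6 mice.

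Because PU.1 is abundant in macrophages, Spi1 was set beside a list of 16 macrophage markers in the same libraries. The summed level of the list was 1943, 576 and 1892 CPM in control mice 1, 2 and 3, and 398, 290 and 384 CPM in the aPU.1KO mice. Control mouse 2 was thus low for these markers as well as for Spi1. Of the 16 genes 14 were lower in aPU.1KO mice, with a median log2 fold change of -2.09 against 0.01 over all 13925 genes, and none of the 16 was at 3 counts or fewer in all libraries. Mrc1, the mannose receptor, fell by 1.70 on the log2 scale (edgeR adjusted p = 0.0389, standard error 0.19), from 95.5, 56.1 and 72.3 CPM in the control mice to 23.0, 22.1 and 24.2 CPM. The most abundant markers missed the threshold by edgeR, and of these only Ctss had a log2 fold change as low as that of Spi1. The values were -2.26 for the lysozyme gene Lyz2, -2.88 for the protease gene Ctss, -2.17 for the complement gene C1qb and -1.89 for Csf1r, the receptor of the macrophage growth factor, with edgeR adjusted p-values of 0.0902, 0.0911, 0.0783 and 0.0749. By DESeq2 14 of the 16 markers had an adjusted p under 0.05, all lower, against 8.73% of all genes tested, among them Lyz2 (0.0140), Ctss (0.0121), C1qb (3.67e-05) and Csf1r (7.57e-06). The edgeR call of Mrc1 was lost without control mouse 1 and with the macrophage list mean as a covariate, where 0 of all genes passed. The exceptions were Cd163 at 0.29 and Mertk at 0.06, both with groups that overlapped.

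The log2 CPM of Spi1 minus the mean log2 CPM of the macrophage list was -1.40, -1.79 and -1.03 in control mice 1, 2 and 3 and -2.15, -3.05 and -1.77 in aPU.1KO mice 1, 2 and 3. The highest aPU.1KO value was just above the lowest control value. On this scale Spi1 was lower by a further 0.92 in aPU.1KO mice than the list, a difference that did not exceed the spread between mice (exact permutation test of 3 against 3, two-sided p = 0.2, where the smallest possible p is 0.1). With the macrophage list mean as a covariate in the edgeR fit, the log2 fold change of Spi1 was 0.0024 (edgeR adjusted p = 0.9998) in place of -2.75. Spi1 is not itself on that list, but 8 of its genes are also on the list of PU.1 targets below. The list mean was 6.01, 4.48 and 5.78 log2 CPM in control mice 1, 2 and 3 and 3.86, 3.42 and 3.86 in aPU.1KO mice 1, 2 and 3. As the groups did not overlap on it, this fit cannot tell genotype from the level of the list. The part of macrophage RNA in the Spi1 value was not tested, and in bulk samples fewer cells of a type and less RNA per cell cannot be told apart.

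The genes whose profile over the 6 mice was closest to that of Spi1 were Msr1, Irf5 and Nckap1l. Likeness was the root mean square difference between centred log2 CPM values, over 11759 protein-coding genes, and came to 0.0908, 0.122 and 0.130 for these genes. Their log2 fold changes were -2.76, -2.61 and -2.77. None of the other 9 ETS genes was near, the closest being Elf4 at 1.01. A list of 28 genes known as PU.1 targets in myeloid cells, which shares 8 genes with the macrophage list, had a median log2 fold change of -2.34. All 28 were lower in aPU.1KO mice, and 26 of them had an unadjusted p under 0.05 by edgeR, against 13.7% of all genes tested. None of the 28 had an edgeR adjusted p under 0.05, against 0.237% of all genes tested in either direction, and 25 had one under 0.05 by DESeq2, against 8.73% that were lower. Its most abundant members were Lyz2, Mpeg1 (a pore-forming protein of macrophages, log2 fold change -2.86), Ctss and Lcp1 (an actin-bundling protein of leukocytes, -2.47).

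Taken over the family, all 10 genes were lower in aPU.1KO mice, against 48% of all genes tested, with a median log2 fold change of -0.53. None of the 10 reached an adjusted p under 0.05 by edgeR, where 0.237% of all genes did. At an unadjusted p under 0.05, 6 of 10 were lower (Spi1, Spib, Elf1, Fli1, Ets1 and Etv6), against 13.7% of all genes, and by DESeq2 Spi1 and Etv6 had an adjusted p under 0.05, against 8.73%. The groups did not overlap for 5 genes, all lower in aPU.1KO mice, against 15.5% of all genes tested. Without control mouse 2, edgeR called 2 of the 10 at an adjusted p under 0.05, Spi1 (0.0123) and Etv6 (0.0318), where 8.34% of all genes passed. Instead of 6 members past an unadjusted 0.05, there were 2 without control mouse 1, where 12.3% of all genes passed in either direction, 8 without aPU.1KO mouse 2, where 24.9% passed, and 1, Ets1, with the macrophage covariate, where 2.69% passed. Under that covariate the log2 fold change lay nearer to 0 or above it for Spi1, Elf1, Elf4 and Etv6 and was almost the same for Fli1 (-0.53). It lay further from 0 for Ets1 (-1.04), Erg (-1.18), Ets2 (-0.82), Spib (-1.75) and Gabpa (-0.14), and none of the 10 had an edgeR adjusted p under 0.05.

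**Figure D2:**
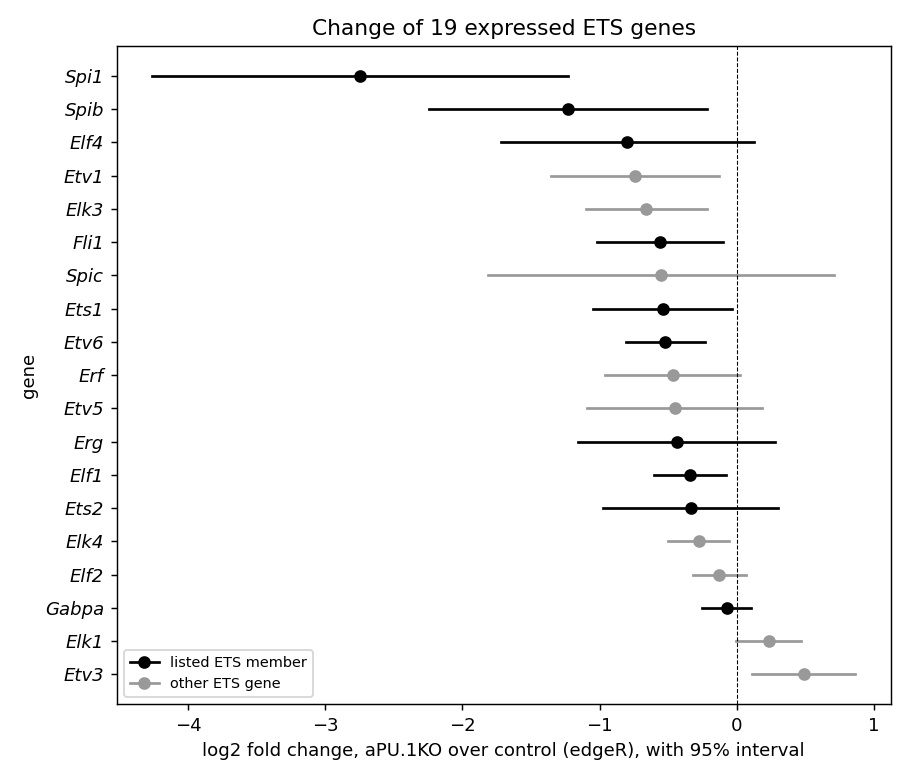
Log2 fold change (aPU.1KO over control, from edgeR) of the 19 ETS genes tested, with 95% confidence intervals as horizontal lines, the 10 listed genes in black and the 9 others in grey. Spi1 lies lowest at -2.75 with the widest interval, most other genes lie between -0.8 and 0, and Elk1 and Etv3 lie above 0.

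SPIB belongs to the same subfamily as PU.1. Spib (ENSMUSG00000008193, chr7:44525993-44532071, minus strand) was at 0.647, 0.744 and 0.635 CPM in the control mice and at 0.203, 0.452 and 0.189 CPM in the aPU.1KO mice. The groups did not overlap, but the counts were only 47, 17 and 16 against 4, 10 and 4. Its log2 fold change came to -1.23 (standard error 0.43, 95% interval -2.24 to -0.22, edgeR adjusted p = 0.136). Markers of the cells known for SPIB were few: 10 of 18 lymphocyte genes and 4 of 7 plasmacytoid dendritic cell genes passed the filter. All 10 lymphocyte genes were lower in aPU.1KO mice, with summed levels of 38.8, 15.3 and 36.9 CPM against 8.18, 6.55 and 10.9 CPM. Il7r, the interleukin 7 receptor, was the most abundant, with a log2 fold change of -3.14 (edgeR adjusted p = 0.0942). It was at 24.9, 4.82 and 22.6 CPM in the control mice and 2.69, 0.316 and 2.98 CPM in the aPU.1KO mice. Most of the sum in control mice 1 and 3 was thus Il7r alone. Cd247, a subunit of the T cell receptor complex, had one of -0.59, the B cell gene Cd22 one of -2.31, and the B cell receptor gene Cd79a one of -0.68. The plasmacytoid list had a median of -0.29, and its genes, Tcf4, Bst2, Irf7 and Siglech, ranged from -0.52 to 0.22. The part of such cells in the Spib value was not tested. The profiles most like that of Spib were those of Ptger4 (0.144), Papln (0.160) and Spata13 (0.172). Spic, the remaining gene of the subfamily and one known from red pulp macrophages, was at 0.702, 0.438 and 0.357 CPM in the control mice and at 0.610, 0.271 and 0.189 CPM in the aPU.1KO mice, which overlapped.

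ELF1 and ELF4 activate genes of lymphoid and myeloid cells. Elf1 (ENSMUSG00000036461, chr14:79481194-79582494, plus strand) was at 48.5, 44.3 and 44.6 CPM in the control mice and 36.8, 31.3 and 40.5 CPM in the aPU.1KO mice, without overlap. Its log2 fold change was small but precise, -0.34 with a standard error of 0.11 (95% interval -0.60 to -0.08, edgeR adjusted p = 0.120). Elf4 (ENSMUSG00000031103, chrX:48411046-48463132, minus strand) was at 20.01, 13.5 and 17.8 CPM in the control mice and 8.59, 5.15 and 15.9 CPM in the aPU.1KO mice. Its groups overlapped through aPU.1KO mouse 3, and within each group it was lowest in mouse 2, as Spi1 was. The log2 fold change was -0.80 (standard error 0.39, 95% interval -1.72 to 0.12, edgeR adjusted p = 0.247). It was -1.32 without aPU.1KO mouse 3 and -0.49 without aPU.1KO mouse 2, and with the macrophage list as covariate it was 0.08 (edgeR adjusted p = 0.9994). The genes with the closest profiles were Nup93 (0.0283), Nus1 (0.0398) and 6430548M08Rik (0.0399) for Elf1 and, at greater distances, Ptpre (0.152), Calhm5 (0.156) and Cacna1d (0.158) for Elf4. ELF2, a close relative of ELF1, differed little, with a log2 fold change of -0.13 (95% interval -0.32 to 0.07).

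ERG, FLI1 and ETS1 came next as factors of the endothelium. Fli1 (ENSMUSG00000016087) was at 33.4, 27.6 and 29.1 CPM in the control mice and at 15.2, 25.9 and 19.99 CPM in the aPU.1KO mice. The groups did not overlap, although aPU.1KO mouse 2 came within a small margin of the lowest control mouse, and its log2 difference was -0.56 (standard error 0.19, 95% interval -1.02 to -0.10, edgeR adjusted p = 0.135). Ets1 (ENSMUSG00000032035) was at 75.8, 84.9 and 62.9 CPM in the control mice and at 38.6, 67.3 and 47.8 CPM in the aPU.1KO mice. Here aPU.1KO mouse 2 lay above control mouse 3, and the log2 fold change was -0.54 (standard error 0.21, 95% interval -1.05 to -0.03, edgeR adjusted p = 0.173). Erg (ENSMUSG00000040732) was at 23.8, 29.2 and 19.4 CPM in the control mice and at 11.2, 25.7 and 16.4 CPM in the aPU.1KO mice. It overlapped in the same way, with a difference of -0.44 on the log2 scale (standard error 0.30, 95% interval -1.16 to 0.28, edgeR adjusted p = 0.401). The Erg value was -0.81 without aPU.1KO mouse 2, -0.21 without aPU.1KO mouse 1 and -0.29 without control mouse 2.

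In all 3 genes aPU.1KO mouse 1 was the lowest and aPU.1KO mouse 2 the highest of its group, and the endothelial marker list had the same order. Among the control mice Ets1 and Erg also had the order of the list, but Fli1 was lowest in control mouse 2, where the list was highest. The 14 endothelial genes summed to 1181, 1373 and 923 CPM in control mice 1, 2 and 3 and to 553, 1170 and 779 CPM in aPU.1KO mice 1, 2 and 3. None was at the floor of 3 counts in all libraries. All 14 were lower in aPU.1KO mice, with a median log2 fold change of -0.45, and 2 of them had an unadjusted p under 0.05 by edgeR, a share near the 13.7% of all genes tested that were lower at that p. The most abundant were Cdh5 (VE-cadherin, log2 fold change -0.61), Ptprb (a phosphatase of endothelial cells, -0.63), Kdr (a receptor of VEGF, -0.20) and Pecam1 (an endothelial adhesion molecule, -0.53), with edgeR adjusted p-values of 0.191 to 0.751.

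Relative to the mean log2 CPM of the endothelial list, the difference between aPU.1KO and control mice was 0.02 for Erg, -0.07 for Fli1 and -0.05 for Ets1. None of these exceeded the spread between mice (exact permutation tests, two-sided p = 0.8, 0.7 and 0.7, smallest possible 0.1). Adjusted over the 4 such tests against list means, Spi1 against the macrophage list included, each exact p became 0.8. Erg followed the list most closely, with relative values of -1.46, -1.31 and -1.44 in the control mice and -1.43, -1.36 and -1.36 in the aPU.1KO mice. For Ets1 the relative values were 0.21, 0.22 and 0.26 in the control mice and 0.34, 0.03 and 0.18 in the aPU.1KO mice, and the spread was larger in the latter group. Those of Fli1 varied more, at -0.97, -1.40 and -0.85 in the control mice and -0.99, -1.35 and -1.07 in the aPU.1KO mice. The part of endothelial RNA in these values was not tested.

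**Figure D3:**
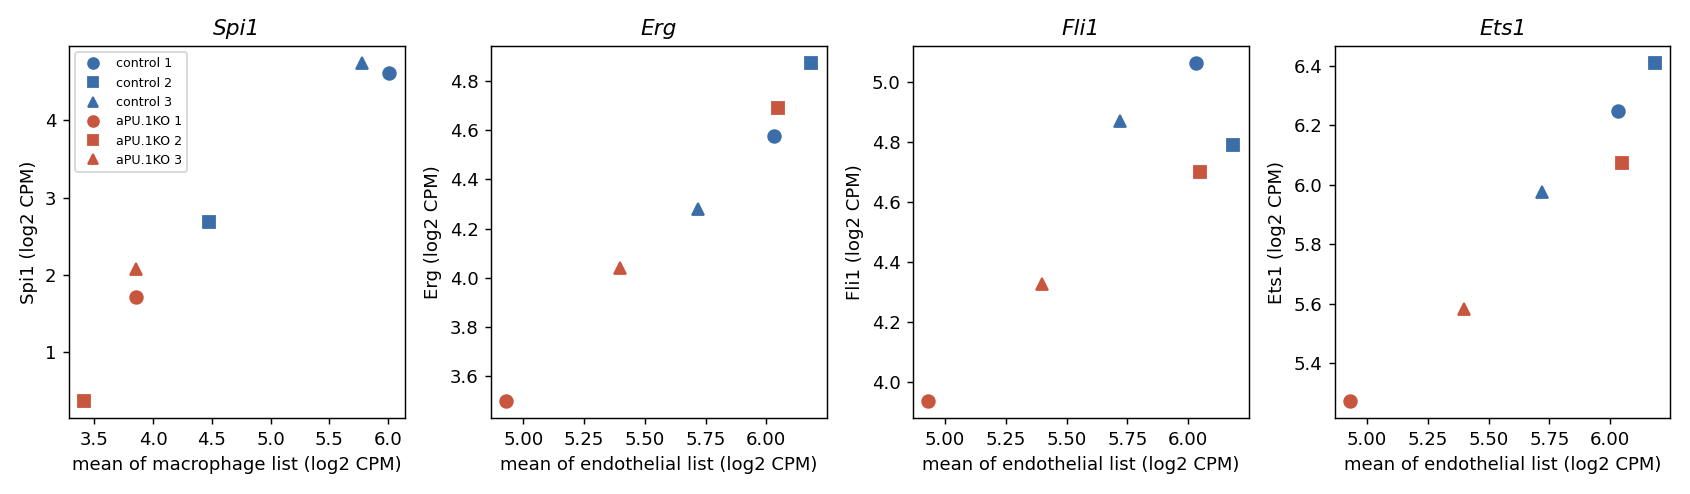
Log2 CPM of Spi1 against the mean log2 CPM of 16 macrophage markers, and of Erg, Fli1 and Ets1 against the mean of 14 endothelial markers, with 1 point per mouse (blue control, red aPU.1KO). Control mouse 2 lies between the other control mice and the aPU.1KO mice for Spi1 and the macrophage list, and aPU.1KO mouse 2 lies among the control mice for the endothelial list and for Erg.

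Fli1 and Ets1 are neighbours in the genome, as are Erg and Ets2, each pair pointing away from one another. On chromosome 9 of GRCm38, Fli1 (chr9:32422204-32542861, minus strand) and Ets1 (chr9:32636221-32757820, plus strand) are 93.4 kb apart, and on chromosome 16, Erg (chr16:95359169-95586593, minus strand) and Ets2 (chr16:95702075-95721051, plus strand) are 115.5 kb apart. Among the 10 genes the most alike profiles over the 6 mice were those of Ets1 and Erg, with a root mean square difference of 0.128 on the log2 scale. Ets1 and Ets2 followed at 0.151, Erg and Ets2 at 0.162, and Fli1 and Ets1 at 0.164. These values rest on the same 6 libraries and are a description. The genes closest to Ets1 among all candidates were Thsd1 (0.0515), Shank3 (0.0531) and Pecam1 (0.0539), of which Pecam1 is on the endothelial list. Those closest to Erg were Mmrn2 (0.0476), Tcf15 (0.0496) and Ablim3 (0.0549), and those closest to Fli1 were Prickle2 (0.0419), Dpysl2 (0.0486) and Adora2a (0.0557).

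ETS2, which acts downstream of Ras and MAP kinase signalling, was the ETS gene with the highest level per length in control mice. Ets2 (ENSMUSG00000022895) was at 78.8, 80.7 and 68.0 CPM in the control mice and at 43.3, 89.1 and 48.0 CPM in the aPU.1KO mice. The aPU.1KO group held both the highest and the lowest values of all 6 mice, and the log2 fold change was -0.33 (standard error 0.27, 95% interval -0.97 to 0.30, edgeR adjusted p = 0.468). It was -0.73 without aPU.1KO mouse 2, -0.16 without aPU.1KO mouse 1 and -0.19 without aPU.1KO mouse 3. Its nearest profiles were those of Bambi (0.0585), Armcx4 (0.0662) and Cd38 (0.0680).

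ETV6 is a repressor required in blood stem cells. Etv6 (ENSMUSG00000030199, chr6:134035700-134270158, plus strand) was at 22.7, 18.1 and 20.9 CPM in the control mice and at 13.5, 15.8 and 13.8 CPM in the aPU.1KO mice. The groups did not overlap and the spread within each was small, which gave Etv6 an unadjusted p of 0.00393, near that of Spi1, at a much smaller log2 fold change of -0.52 (standard error 0.12, 95% interval -0.81 to -0.23). Its adjusted p was 0.0796 by edgeR and 0.00646 by DESeq2. The nearest profiles were those of Lrrc49 (0.0517), Rai14 (0.0626) and Nfya (0.0639). Leaving out any 1 mouse moved the Etv6 value only between -0.61 and -0.46. With the macrophage list as covariate it was -0.28 (edgeR adjusted p = 0.9994).

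GABPA, the general activator of the family, was the steadiest. Gabpa (ENSMUSG00000008976, chr16:84834925-84863779, plus strand) was at 53.2, 53.2 and 49.9 CPM in the control mice and at 50.7, 51.7 and 46.3 CPM in the aPU.1KO mice. All 6 mice lay close together and the groups overlapped, and the log2 fold change was near 0 (-0.07, edgeR adjusted p = 0.578, standard error 0.07). Its 95% interval, from -0.25 to 0.11, was the narrowest of the 10 genes. The profiles most like it were those of Kdm3b (0.0203), Strbp (0.0229) and Actb (0.0238).

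Of the other 17 ETS genes, 9 passed the filter, of which 7 were lower and 2 higher in aPU.1KO mice, with a median log2 fold change of -0.45. None had an edgeR adjusted p under 0.05, and 3 lower genes and 1 higher gene had an unadjusted p under 0.05, against 13.7% and 11.9% of all genes tested. Elk3, a ternary complex factor also known from endothelium, differed by -0.66 on the log2 scale (standard error 0.18, edgeR adjusted p = 0.101, DESeq2 adjusted p = 0.0159). Its relatives Elk4 and Elk1, which join serum response factor at early response genes, had values of -0.28 and 0.23. Etv1 and Etv5, of the PEA3 subfamily, had values of -0.74 and -0.45, and the repressor gene Erf one of -0.47. The Etv5 value was -0.20 without aPU.1KO mouse 2 and -0.73 without aPU.1KO mouse 3, and the Erf value was -0.72 without aPU.1KO mouse 2. Etv3, a repressor gene, lay in the opposite direction, at 92.3, 117.0 and 80.8 CPM in the control mice and 119.7, 154.5 and 132.4 CPM in the aPU.1KO mice. Its groups did not overlap, and its log2 fold change was 0.49 (standard error 0.16, 95% interval 0.11 to 0.87, edgeR adjusted p = 0.123). With the macrophage list as covariate it was -0.05 (edgeR adjusted p = 0.9994). For Etv5, 30.3% of the runs of 31 bases were shared with the annotated gene Gm4798, and for Etv1 10% with others, mostly Gm5454, so that their values are less certain. The remaining 8 were too low to test: Etv2, Etv3l and Fev had no count in any library, which allows at most 0.0413 CPM (3 counts) in the deepest, Elf3 and Spdef had at most 3 counts in each library, and Ehf, Elf5 and Etv4 had at most 21.

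Levels of different genes were compared per length, as CPM per kb of annotated exon. In control mice Ets2 stood highest at 13.1 ± 1.18 CPM per kb (SD, n = 3), above Elk4 at 11.0 with no overlap in range. Etv3, Gabpa (9.16 ± 0.34), Ets1 (8.79 ± 1.31) and Fli1 (8.61 ± 0.86) followed with neighbouring ranges that overlapped, and Elk3 came next with a range below that of Fli1. Spi1 (7.10 ± 4.13), Erg (6.96 ± 1.43) and Elf1 (6.80 ± 0.35) were close to Elk3, and the ranges of neighbours overlapped. This middle order depended on the length used. Per kb of the longest transcript, Elf1 stood at 10.8 CPM and at place 5 in place of 10, above Gabpa (10.4), Spi1 (9.40) and Fli1 (9.05), and Ets1 stood at 14.7 and at place 3 in place of 5, while Ets2 and Elk4 kept the first places. Etv6 (3.44 ± 0.38) and Elf4 (2.79 ± 0.54) were lower and overlapped. Spib (0.24 ± 0.02) was the only one of the 10 below them, and Elf4 and Spib were separated by the widest gap on a ratio scale among the genes tested. The wide spread of Spi1 came from control mouse 2, at 2.36 CPM per kb against 9.02 and 9.92 in the other control mice. In aPU.1KO mice Spi1 was at 1.19, 0.45 and 1.55 CPM per kb, and its place among the 27 ETS genes by mean level was 16 in place of 8. The other 9 genes moved by at most 3 places.

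**Figure D4:**
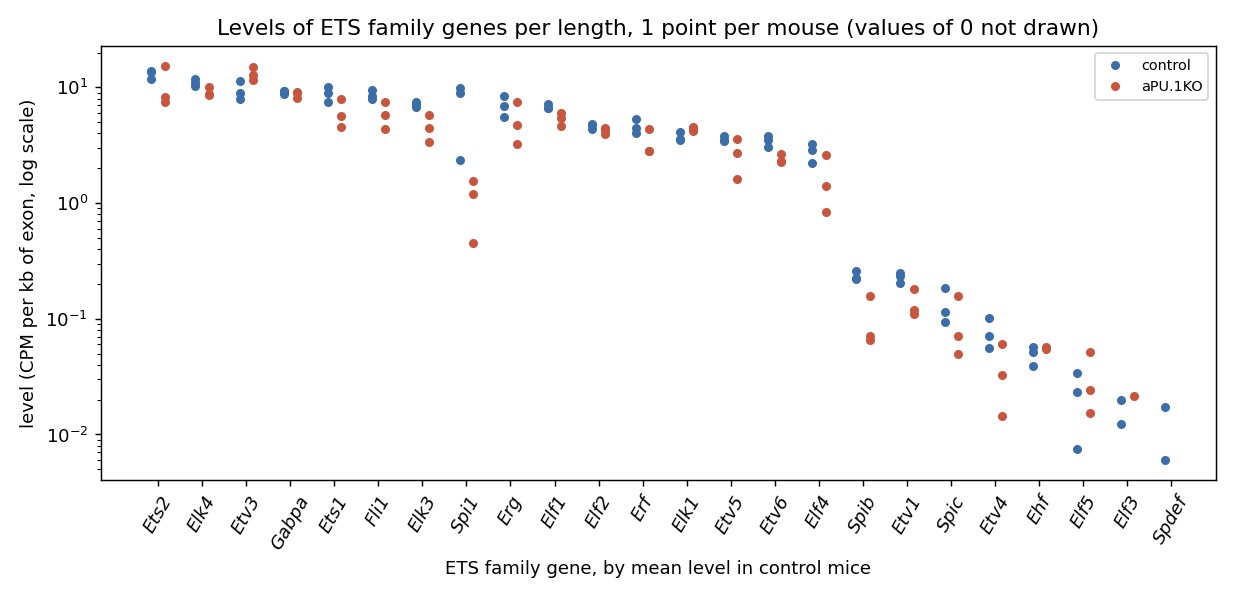
Level of each ETS gene as CPM per kb of exon (log scale), with 1 point per mouse (blue control, red aPU.1KO), ordered by the control mean. Spi1 stands among the abundant genes of the family in control mice (mean 7.10 CPM per kb) and below all of them except Etv1, Spib and rarer genes in aPU.1KO mice (mean 1.06).

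Promoters were searched for letters an ETS factor could recognize, since PU.1 binds a purine-rich site with GAGGAA and GABPA and the ETS1 class prefer CCGGAA. A RefSeq table for GRCm38 held promoters (250 bases before to 50 after a start) of 7 of the 10 genes, 11 promoters in all, and a match was counted on either strand. GAGGAA occurred in 28.3% of all 32851 promoters in the table and CCGGAA in 14.9%. Elf4 held GAGGAA in both of its promoters, and Gabpa held both motifs. The matches are shown with 20 bases on each side and the motif, or its reverse complement, in capitals. The printed windows span chrX:48463312-48463357 and chrX:48454369-48454414 on the minus strand for Elf4. For Gabpa they span chr16:84834991-84835036 around GAGGAA and chr16:84835012-84835057 around CCGGAA, on the plus strand, and overlap.
Elf4 promoter 1: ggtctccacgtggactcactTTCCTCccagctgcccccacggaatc
Elf4 promoter 2: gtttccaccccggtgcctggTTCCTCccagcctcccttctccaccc
Gabpa, GAGGAA: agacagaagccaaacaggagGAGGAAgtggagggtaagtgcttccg
Gabpa, CCGGAA: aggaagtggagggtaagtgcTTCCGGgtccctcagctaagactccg
The promoters of Spib, Elf1, Ets2, Erg and Etv6 in the table held neither motif. Such a match describes the letters only. Of the genes with a GAGGAA match, Elf4 had a log2 fold change of -0.80 and Gabpa one of -0.07, neither with an edgeR adjusted p under 0.05.

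All 17 listed genes for partners and cofactors of ETS proteins were tested, with a median log2 fold change of -0.13, and 11 of them were lower and 6 higher in aPU.1KO mice. By edgeR none had an adjusted p under 0.05, and at an unadjusted p under 0.05 there were 4 lower genes and 1 higher gene of the 17, against 13.7% and 11.9% of all genes tested. Cebpa, a myeloid and adipocyte factor, was the most abundant and the higher gene among these, at 657, 700.3 and 690.6 CPM in the control mice and 852, 922 and 855 CPM in the aPU.1KO mice (log2 fold change 0.36, standard error 0.09, edgeR adjusted p = 0.0868, DESeq2 adjusted p = 0.000218). The AP-1 genes Fos and Jun were next in abundance, with log2 fold changes of 0.45 and 0.59 and groups that overlapped. The 4 lower ones, named after their values were seen, were Irf8 (-0.82), which binds DNA together with PU.1, Runx1 (-0.91), its subunit gene Cbfb (-0.31), and Gabpb2 (-0.23), which encodes a partner of GABPA. Their DESeq2 adjusted p-values were 0.00511, 0.0113, 0.124 and 0.0533, so that 2 of the 17 were called lower, against 8.73% of all genes tested. Irf8 was at 36.5, 22.5 and 38.4 CPM in the control mice and 18.7, 19.6 and 17.1 CPM in the aPU.1KO mice, and was lowest of the control group in control mouse 2, as Spi1 was.

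Markers of other cells of the fat pad were counted in the same libraries. All 10 progenitor genes were lower in aPU.1KO mice, with a median log2 fold change of -1.03. By DESeq2 8 of the 10 were lower at an adjusted p under 0.05, against 8.73% of all genes tested. Fbn1, a fibrillin of the extracellular matrix, fell by 1.91 (edgeR adjusted p = 0.0268), while the collagen genes Col3a1 and Col1a1 and the proteoglycan gene Dcn had log2 fold changes of -0.84, -0.82 and -0.91. Of the mural cell markers 7 of 7 tested were lower, with a median of -0.70, and 4 of the 7 were called lower by DESeq2, against the same 8.73%. Pdgfrb, a growth factor receptor of pericytes, fell by 0.95 (edgeR adjusted p = 0.0491), and Rgs5, Acta2 and Cspg4 had values of -0.70, -0.11 and -0.09. As for Mrc1, the edgeR calls of Fbn1 and Pdgfrb were lost without control mouse 1 and with the macrophage covariate. Few genes of the whole table were called in other fits too: 5 without control mouse 3, 6, 7 and 8 without aPU.1KO mice 1, 2 and 3, and 5 with at least 10 counts in every library. Whether these calls held there is not given. The neutrophil and mast cell list (6 of 12 tested) had a median of -0.79, with S100a8 at -0.998, Kit at -0.59, Mmp9 at -0.19 and Mcpt4 at -1.98. The mesothelial list (6 of 8 tested) had one of -0.45, with Upk3b, Wt1, Lrrn4 and Msln between -0.68 and -0.03. The 12 adipocyte genes, which mark the labelled cell type, had a median of 0.32, with 11 higher and only Lep lower (-0.77). They summed to 33900.2, 36212.2 and 36875.5 CPM in the control mice and 44750.8, 46867.4 and 40379.2 CPM in the aPU.1KO mice, without overlap. By DESeq2 8 of the 12 were higher at an adjusted p under 0.05, against 653 of the 13925 genes tested. Fabp4, Cidec and Plin4, genes of lipid handling, had log2 fold changes of 0.44, 0.30 and 0.08. How far the RNA of these cells entered the values of the 10 ETS genes was not tested.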

How the data were processed

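Libraries from 3 control and 3 aPU.1KO mice were compared. The authors quantified reads with Salmon (option validateMappings), summed transcripts to genes and deposited estimated counts, which were whole numbers. The submitters' processing notes name GRCm38 and FastQC. The Salmon version and annotation are not given in the sources used here. Of 35122 Ensembl genes, 35102 matched a symbol in GENCODE M21 (GRCm38), and the others held 0.00188% of counts. No libraries were duplicates.

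Group differences were fitted with edgeR 4.0.16 in R 4.3.3 (filterByExpr, TMM, glmQLFit and glmQLFTest defaults, two-sided, Benjamini-Hochberg adjustment). CPM were computed from these factors, with a prior count of 2 for log2 values in ratios and profiles. Intervals and standard errors come from the fitted coefficient and the quasi-likelihood spread. Scripts were tested on simulated data. Alternatives were DESeq2 1.42.0, limma-voom (limma 3.58.1), other factors, filters and dispersion settings, a macrophage covariate and leaving out each mouse, and control mouse 1 thinned to the median depth was added after the data were seen. Sequences came from GRCm38 and RefSeq promoters (Biopython 1.88), and plots used matplotlib 3.10.9 (Python 3.11.15).

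The members and lists were chosen with earlier results of these data known. Named were all members, every other ETS gene tested, of each list the 4 most abundant genes and any gene with an adjusted p under 0.05, and the 3 genes with profiles most like a member's. A result that this rule would name is not reported here. The floor was 3 counts per library. Mice are numbered in accession order, which pairs no samples, and p-values measure the spread between these mice.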

Additional observations from a re-analysis of the deposited data

How the results depend on the processing

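Spi1 kept its direction with each mouse left out (-3.17 to -2.39) and under every scaling, filter and test tried, other than the macrophage covariate, which gave 0.0024. It passed an adjusted p of 0.05 by DESeq2 (-2.75) and without control mouse 2. With that covariate Elf4 (0.082), Spic (0.117) and Etv3 (-0.045) also turned, 1 of the 10 members instead of 6 had an unadjusted p under 0.05, and 0 of all genes were called. The cause was not tested.

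The count of all genes called by edgeR, 33, was 5 with at least 10 counts in every library, 146 with no filter and 1869 by DESeq2, and ran from 0 to 1193 with a mouse left out, at the ends without control mouse 1 and without control mouse 2. Members called were 0 in edgeR and 2 by DESeq2, with 0 to 2 as a mouse was left out. Members at an unadjusted p under 0.05 ranged from 2 (without control mouse 1) to 8 with a mouse left out. With a mouse left out, the difference relative to the cell lists ranged from -1.19 to -0.55 for Spi1, from -0.0068 (without control mouse 1) to 0.0648 for Erg, from -0.228 to 0.0446 (without control mouse 3) for Fli1, which was 0.0392 without aPU.1KO mouse 2, and from -0.127 to 0.0309 (without aPU.1KO mouse 2) for Ets1. By the longest transcript Spi1 ranked 7 in control mice. All other results for ETS genes kept their direction, and Elk3 and Etv6 (DESeq2), and Etv3 and Etv6 (without control mouse 2), became called. Beyond DESeq2, the directions of the marker, target and partner lists under these alternatives are not given here.

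Low counts limit Spib, Spic and Etv1, and 3 mice per group limit every exact test to a p of 0.1 or more. No paired analysis was run because the labels give neither litters nor replicate numbers shared by the groups.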
